A study of Homo sapiens with 4 samples.

Results

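The intervals described here are the m6A-enriched stretches that 2 deposited lists place in 5 mucin genes of an airway cell line: MUC16, MUC1, MUC4, MUC20 and MUC5B. N6-methyladenosine (m6A) is a base modification of messenger RNA. Members were chosen by position: an interval belonged to a gene when it overlapped that gene's window in hg19, on the gene's strand. The windows are given in kb, chromosome 19 from 8959 to 9093 on the minus strand for MUC16, chromosome 1 from 155158 to 155163 on the minus strand for MUC1, chromosome 3 from 195473 to 195540 on the minus strand for MUC4, chromosome 3 from 195447 to 195461 on the plus strand for MUC20, and chromosome 11 from 1244 to 1284 on the plus strand for MUC5B. They held 12 of the 11038 intervals of one list and 12 of the 13691 intervals of the other, and 0 intervals lay on the opposite strand. The genes were picked because of what these lists hold in them, so the numbers of intervals below are a description and carry no test.

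The cells were 16-HBE, an established line of human bronchial epithelial cells, kept for 24 h in medium with 5% cigarette smoke extract (CSE) in both conditions. One condition had CSE alone, with the genotype label WT. In the other condition METTL3, the catalytic subunit of the m6A methyltransferase, was knocked down with siRNA. Each condition had an m6A immunoprecipitation (IP) library and an input library, which is the same RNA without the antibody step, and 1 list of intervals per condition was analysed. No condition without smoke extract and no control siRNA is named in the labels, so loss of METTL3 cannot be told apart from transfection. With 1 list per condition there is no replicate spread, and each difference below is one between 2 lists. The lists hold neither expression values nor gene names, so the knockdown and the epithelial identity of the cells were not checked against transcript levels.

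Mucins are large glycoproteins that form and anchor the mucus layer of the airway. MUC5B is a secreted mucin that makes up the gel itself, whereas MUC1, MUC4, MUC16 and MUC20 carry a transmembrane segment and sit on the cell surface. Their long serine- and threonine-rich stretches carry dense O-linked sugars and are often encoded by single, very long exons built from tandem repeats. In messenger RNA, m6A is commonly found in long internal exons and around stop codons, most often in a sequence with the core GGAC.

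As deposited, the lists gave MUC16 fewer intervals after METTL3 knockdown and yet a longer stretch of its RNA covered by them. MUC16, also known as CA125, is the largest of the membrane-bound mucins. It held 8 intervals in CSE and 5 with knockdown. They covered 14848 nt in CSE and 36154 nt with knockdown, a ratio of 2.43. This is the length of the listed intervals, and how much of it carried m6A was not measured. The number and the length differed in opposite directions: 5 short intervals, covering 568 nt in sum, were listed only in CSE, while a single interval of 21693 nt was listed only with knockdown. Without that interval the knockdown list covered 14461 nt of MUC16, close to the CSE value. Both differences came from intervals in the lower 50% of their list by the authors' score. In the upper 50%, MUC16 had 2 intervals in CSE and 3 with knockdown, so the order of the numbers turned round. They covered 14093 and 14347 nt. The further knockdown interval was chr19:8959520-8959706, which both lists held, at the 37.6th percentile in CSE and the 59.2nd with knockdown. The turn therefore reflects its rank and not an interval gained with knockdown.

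The listed intervals of MUC16 followed its exons. The annotation at hand, GENCODE release 29, belongs to another genome build, so exons were recognised by their length and by the distances between them, and no position was carried over. Of the 11 distinct MUC16 intervals of both lists, 8 had exactly the length of an exon of the 84-exon transcript ENST00000397910.8, at exactly the spacing of those exons. The other 3 lay inside exons by the same spacing. In these terms both lists held exon 1, exon 5 and exon 84. The CSE list alone held exons 6, 14, 19, 29 and 36, and the knockdown list alone held exons 3 and 4. Exons 1, 3 and 5 make up 82.3% of this 43816 nt transcript, and exon 3 alone 49.5%. The other 81 exons have at most 187 nt each. The width of most MUC16 intervals was thus that of a whole exon. The covered length of MUC16 therefore mostly gives the size of the exons listed, and the extent of m6A within an exon cannot be read from it.

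**Figure D1:**
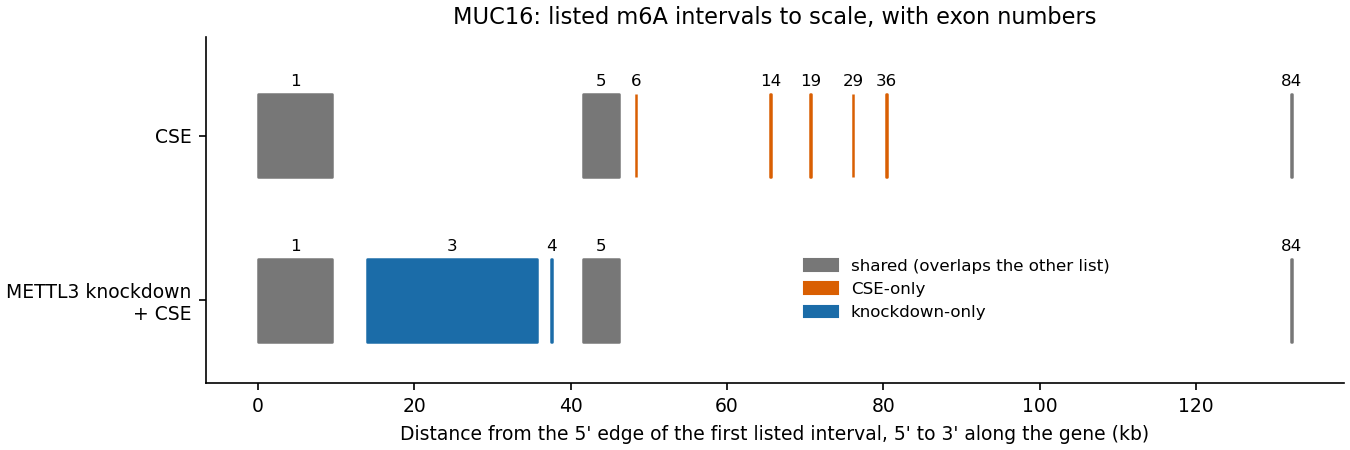
Listed m6A intervals of MUC16 in the CSE list (upper row) and the METTL3 knockdown list (lower row), drawn to scale by distance in kb along the gene, with the exon number above each interval. Grey intervals overlap the other list, orange intervals were listed only in CSE and the blue ones only with knockdown; the 21693 nt interval of exon 3 lies between the shared intervals of exons 1 and 5.

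The CSE-only intervals were short coding exons, 4 of the 5 of them from the repeat region of MUC16. This region encodes the tandem repeats with SEA modules that carry the CA125 epitope, and its exons recur in nearly the same form. The sequences of the exons listed in 1 condition only, other than exon 3, are given here because they make the recurrence visible; they come from the GENCODE 29 transcript, 5′ to 3′, and capitals mark GGAC.
MUC16 exon 6: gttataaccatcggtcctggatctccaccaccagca
MUC16 exon 14: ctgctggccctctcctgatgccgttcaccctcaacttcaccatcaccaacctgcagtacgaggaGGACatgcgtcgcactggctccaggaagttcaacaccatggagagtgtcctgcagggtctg
MUC16 exon 19: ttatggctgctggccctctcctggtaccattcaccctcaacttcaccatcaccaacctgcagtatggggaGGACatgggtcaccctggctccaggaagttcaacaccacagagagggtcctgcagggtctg
MUC16 exon 29: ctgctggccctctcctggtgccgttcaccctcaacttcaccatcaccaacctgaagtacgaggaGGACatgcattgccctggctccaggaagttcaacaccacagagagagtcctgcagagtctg
MUC16 exon 36: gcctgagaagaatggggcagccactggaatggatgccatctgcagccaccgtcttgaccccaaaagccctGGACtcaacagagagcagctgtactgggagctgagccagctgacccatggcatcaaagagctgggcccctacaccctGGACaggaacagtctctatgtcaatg
MUC16 exon 4: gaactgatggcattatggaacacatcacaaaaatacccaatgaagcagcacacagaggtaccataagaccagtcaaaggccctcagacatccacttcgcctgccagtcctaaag

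Exons 14, 19 and 29 are versions of the same repeat exon. Exons 14 and 29, both of 125 nt, were identical at 92.8% of their bases. Exon 19 has 131 nt, and its last 125 nt matched the 10 exons of 125 nt at a median of 90.4%. Exon 36 is 1 of 14 exons of 173 nt and was most like exon 21, at 94.2%. The longest run of bases that each shares with another part of the transcript was 50 nt for exon 14, 53 nt for exon 19, 36 nt for exon 29 and 57 nt for exon 36. Reads that fit within such runs can be placed on more than 1 exon. Read lengths were not used here, so which copy of the repeat an interval belongs to is uncertain, and its part in the result was not tested. Exon 6 was less like its counterparts: 14 other exons have its length of 36 nt, the closest of them, exon 7, was identical at 83.3% of the bases and the median was 69.4%, with a longest shared run of 13 nt. No other exon has the length of exon 4, which shares a run of at most 11 nt with the rest of the transcript.

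GGAC was present in 4 of the 5 CSE-only exons. On the sense strand, exons 14, 19 and 29 each held 1 GGAC at the same place of the repeat, and exon 36 held 2. Exon 6 and the knockdown-only exon 4 held 0. Among the different exons of the same length in coding transcripts, GGAC was found in 45.4% of those of 125 nt, in 45.8% of those of 131 nt, in 57.5% of those of 173 nt, in 23.5% of those of 36 nt and in 39.7% of those of 114 nt. A match in an exon of this size is therefore common.

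The scores of these intervals were low in their list. The score is a value that the authors deposited with each interval on a scale they do not state, and it serves here only to rank intervals of the same list. The interval of exon 19 (chr19:9021054-9021184, 131 nt) had the highest of the 5, 134.2, at the 34.6th percentile of the CSE list. Exon 14 (chr19:9026191-9026315, 125 nt) followed with 96.3, at the 23.2nd percentile. Exon 6 (chr19:9043426-9043461, 36 nt) had 74.7, at the 15.0th percentile. Exon 36 (chr19:9011322-9011494, 173 nt) and the first 103 nt of exon 29 (chr19:9015643-9015745) were near the lowest score listed, 50.02, with 53.1 and 51.1. All 5 thus lay in the lower part of the CSE list, and the nearest knockdown interval on the strand was between 2102 nt (exon 6) and 34069 nt (exon 36) away. Between the knockdown intervals that flank these exons, 5 of the running numbers in the interval names were unlisted, so unlisted calls there cannot be told apart from absent ones.

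The 21693 nt interval of exon 3 (chr19:9056173-9077865) was the widest of the whole knockdown list. Exon 3 is entirely coding and encodes most of the heavily O-glycosylated amino-terminal part of MUC16. Its score of 234.4 was at the 45.4th percentile of that list, below the scores of the neighbouring wide exons. The short exon 4 beside it (chr19:9054235-9054348, 114 nt) scored 153.6, at the 33.8th percentile. In the CSE list no interval lay between exon 5 and exon 1, a gap of 32096 nt. The names of those flanking CSE intervals leave 1 number unlisted between them, so a CSE call over exon 3 or exon 4 that was not listed is possible and was not tested.

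The intervals of MUC16 common to both lists were the flanking long exons and the last exon. Exon 5 (chr19:9045564-9050243, 4680 nt) had identical borders in both lists, with a score of 1190.1 in CSE, at the 85.2nd percentile, and 3100 with knockdown, a value shared by 1113 intervals of that list. Exon 1 was listed without its 5′ end in both lists, at chr19:9082340-9091752 (9413 nt) in CSE and chr19:9082340-9091819 (9480 nt) with knockdown. The exon has 9679 nt, of which the first 204 nt are 5′ untranslated, so the CSE interval began 266 nt and the knockdown interval 199 nt after the annotated start. Its scores were 493.1 in CSE, at the 69.9th percentile, and 3100 with knockdown. Exon 84 (chr19:8959520-8959706, 187 nt) holds the last 96 coding nt and the stop codon, and was listed with identical borders and scores of 148.4 and 402.2, at the 37.6th and 59.2nd percentiles. All 3 shared intervals thus ranked higher within the knockdown list than within the CSE list. Of all intervals with identical borders, which include exons 5 and 84 but not exon 1, 63.0% did so. The repeat exons between exon 5 and exon 84 had no listed knockdown interval.

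**Figure D2:**
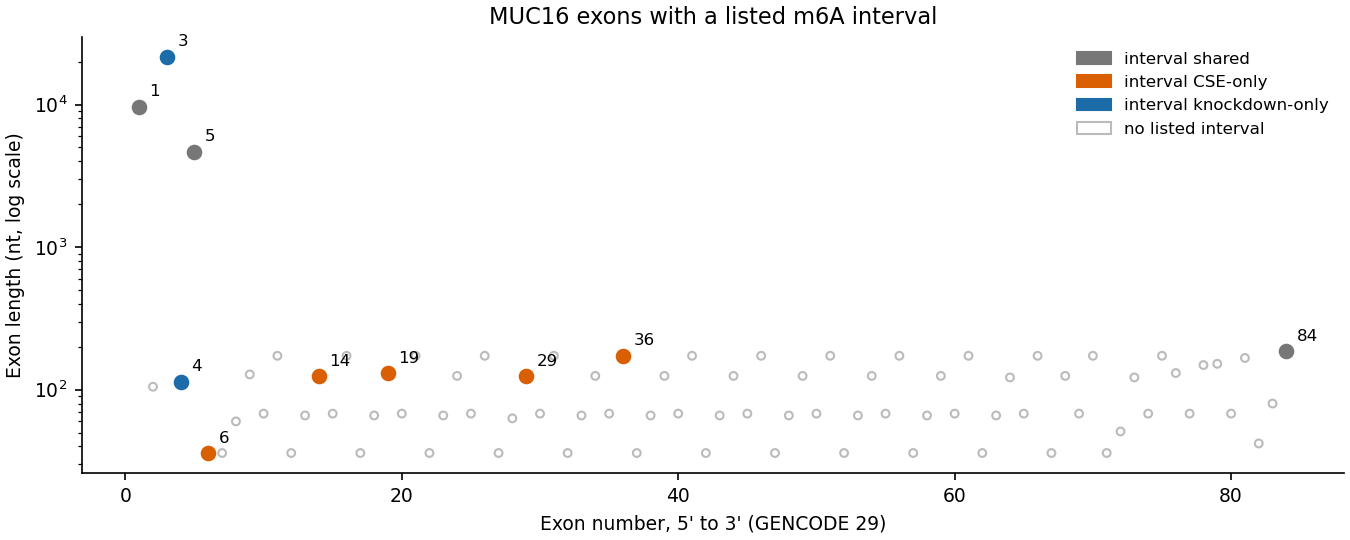
Length in nt (log scale) of each of the 84 exons of MUC16 by exon number; filled points are exons with a listed interval, coloured by whether it was shared, CSE-only or knockdown-only, and open points are exons with none. The 5 CSE-only exons lie between exon 6 and exon 36 and have 36 to 173 nt, while the knockdown-only exon 3, with 21693 nt, is the longest.

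The lower number of MUC16 intervals with knockdown was also set beside other stretches of the lists. This is a description only, since the gene was chosen for what these lists hold in it. When intervals of both lists on a strand were joined across gaps of up to 10 kb, 9913 stretches resulted. The MUC16 stretch with the lowest net change (chr19:9011322-9026315) held 4 CSE-only intervals and 0 knockdown intervals, a net change of -4. It was picked for that low value, so nothing is read from how few others reach it. The other stretches of the whole lists with a net change of -4 or below numbered 3, on chromosome 5 (140710252 to 140802824, -12), chromosome 20 (34800194 to 34832848, -4) and chromosome X (2638397 to 2644414, -4), each on the plus strand. The net change of the MUC16 stretch, and with it the cutoff of this count, depends on the gap. With gaps of up to 20 kb or 50 kb, tried after seeing the data, the stretch reached from exon 36 to exon 1. Its net change was then -3, and 22 or 28 other stretches had a net change of -3 or below. Stretches at -3 or below were not counted for gaps of up to 10 kb, so these counts are not comparable with the 3 above. At 10 kb the adjoining stretch with exons 1 to 6 had 1 CSE-only and 2 knockdown-only intervals, a net change of 1.

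Among the other 4 mucins no interval was listed in CSE only. For comparison, 19.9% of all CSE intervals had no overlap in the knockdown list and 35.5% of all knockdown intervals had none in the CSE list. Over the 5 genes, 5 of 12 intervals were CSE-only and 5 of 12 knockdown-only, 41.7% of each. All 5 CSE-only intervals were those of MUC16. The knockdown-only intervals were divided between MUC16 with 2, MUC4 with 2 and MUC20 with 1. Since the genes were chosen from these lists, nothing is read from these shares. Of the 7 pairs of shared intervals, 5 had identical borders, beside 82.1% of the overlapping CSE intervals of the whole list.

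**Figure D3:**
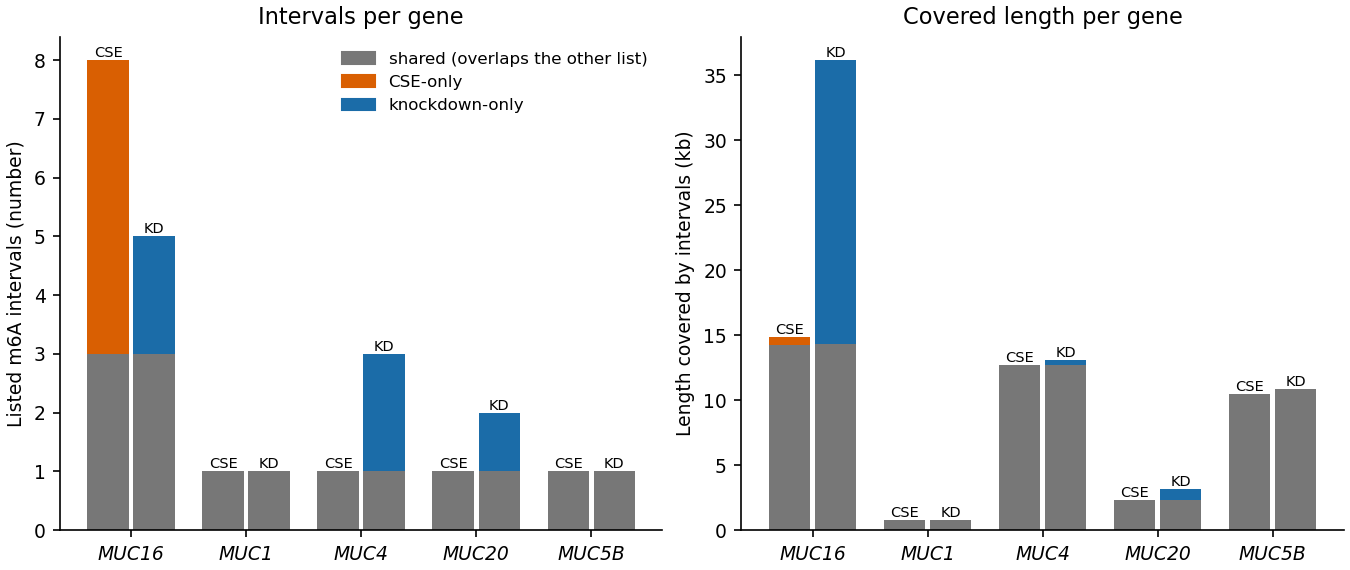
Number of listed intervals (left) and length covered by them in kb (right) for each mucin in the CSE list and the METTL3 knockdown (KD) list, with the part that overlaps the other list in grey. MUC16 has 8 intervals in CSE and 5 with knockdown but covers more length with knockdown, and the other genes have 1 interval each in CSE.

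MUC4 had its long repeat exon in both lists and 2 further, short intervals with knockdown. MUC4 is a membrane mucin that can act as a partner of the receptor ERBB2. Its interval at chr3:195505661-195518368 had the same borders in both lists and, with 12708 nt, was the widest of the whole CSE list and the 4th widest of the knockdown list. It had exactly the length of exon 2 of transcript ENST00000463781.7, which encodes the tandem repeats and is coding throughout. Its score was 3100 in both lists, a value shared by 620 CSE intervals. The most frequent 96-nt word of this exon is shown as an example of its repeats. A shift of 96 nt gave the most equal bases, 74.4%. The word itself consists of 2 similar units in tandem, so 96 nt is not the length of the single repeat unit. It occurs 7 times without a change, and 19 times with up to 5 mismatches. These counts are of the pair and not of the single unit.
MUC4 exon 2 repeat: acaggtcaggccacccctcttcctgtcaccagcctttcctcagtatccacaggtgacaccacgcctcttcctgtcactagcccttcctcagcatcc

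Of the additional MUC4 intervals, one lay at the 5′ end of the gene and one towards its 3′ end. At the 5′ end, chr3:195538607-195538844 (238 nt) had the length and spacing of exon 1 of the processed transcript ENST00000478685.1, and scored 517.4, at the 65.2nd percentile of the knockdown list. Towards the 3′ end, chr3:195484018-195484199 (182 nt) had those of the coding exon 18 of the 25 exons of ENST00000463781.7 and scored 126.8, at the 28.2nd percentile. The nearest CSE intervals on the strand were 20238 and 21461 nt away. The 5′ interval had the highest score of the 5 knockdown-only intervals. Between the CSE intervals flanking them, 11 numbers for the 5′ one and 7 for the 3′ one were unlisted. The covered length of MUC4 was 12708 nt in CSE and 13128 nt with knockdown.

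MUC20 had a further interval at its last exon with knockdown. MUC20 is a small membrane mucin known to bind the receptor MET, and it lies next to MUC4 on the other strand. Both lists held chr3:195451098-195453443 (2346 nt), which has the length of exon 1 of transcript ENST00000445522.6, with scores of 2242.9 in CSE and 3100 with knockdown. The knockdown-only interval, chr3:195460021-195460807 (787 nt), began at the spacing of the last exon and ran 385 nt past the end of that exon in ENST00000447234.6. Its score of 52.8 was at the 1.8th percentile of its list. The next knockdown interval on the strand, chr3:195461459-195464540 (3082 nt, score 655.5), began 458 nt beyond the window and was not counted. It was assigned to no gene here, and the next CSE interval on that side was 835 kb away from the window. Part of the MUC20 coding sequence is repeated, and 23.9% of the 50-base words of its long exon occurred there more than once.

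MUC5B had 1 interval in each list, with different borders. MUC5B is the main gel-forming mucin of the normal airway, and its large central exon encodes the repeat domains between cysteine-rich modules. With knockdown the interval chr11:1262081-1272973 (10893 nt) had exactly the length of exon 31 of transcript ENST00000529681.5. The CSE interval, chr11:1262290-1272775 (10486 nt), lacked 209 nt at the 5′ end and 198 nt at the 3′ end of that exon. The scores were 2056.9, at the 91.0th percentile of the CSE list, and 3100, at the 91.5th percentile of the knockdown list. On its upstream side the CSE list had a plus-strand interval at chr11:1221664-1222366 (703 nt, score 384.7), 21.6 kb outside the window. The nearest knockdown interval on that side was 263 kb away. Neither was assigned to a gene.

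MUC1 was the member that ranked far lower with knockdown than in CSE. MUC1 is a membrane mucin of most epithelia with a short signalling tail. Its only interval, chr1:155160639-155161428 (790 nt), had the same borders in both lists. The score was 776.7 in CSE, at the 78.8th percentile, and 98.9 with knockdown, at the 20.6th percentile. The distance was -58.3 percentile points. Among the 7258 intervals with identical borders, 25, or 0.344%, MUC1 included, ranked lower with knockdown by at least as much, and 20.5% had a lower score. MUC1 was singled out as the lowest of the shared mucin pairs, in genes chosen from these lists. The share is therefore a description and not a test. Of the other 6 shared mucin pairs, the 3 of MUC16 and that of MUC5B ranked higher within the knockdown list, and those of MUC4 (94.0th and 91.5th percentile) and MUC20 (91.6th and 91.5th) slightly lower, with ties at 3100 setting the knockdown ranks of 5 of these 6. None of the exons in 29 annotated MUC1 transcripts has 790 nt, the longest having 850 and 825 nt, so no exon was assigned. The rank concerns a place within each list, and with 1 list per condition it has no replicate check.

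**Figure D4:**
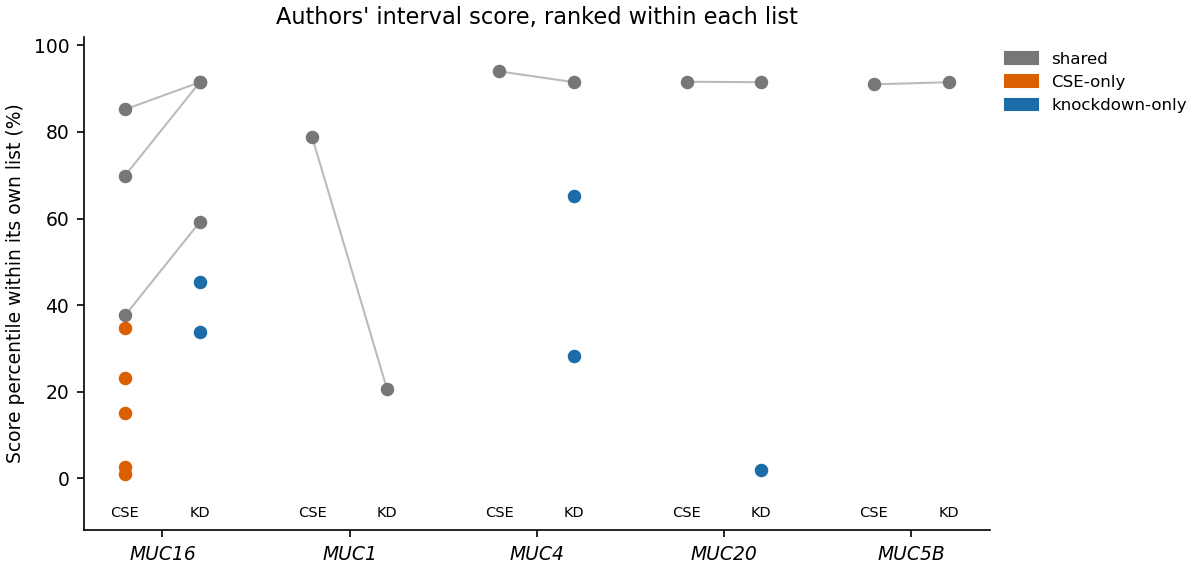
Percentile of the authors' score within its own list for each of the 12 CSE and 12 METTL3 knockdown (KD) intervals, by gene; lines join overlapping intervals, and intervals tied at 3100 share the percentile 94.0 in CSE and 91.5 with knockdown. The CSE-only intervals of MUC16 lie at or below the 34.6th percentile, and the MUC1 interval lies at the 78.8th in CSE and the 20.6th with knockdown.

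The wide intervals of the mucins were among the widest of the lists. These genes held 3 of the 10 widest CSE intervals and 4 of the 10 widest with knockdown. Only 3 CSE and 5 knockdown intervals exceeded 10000 nt, 2 and 3 of them in MUC4, MUC5B and MUC16. The median width of the mucin intervals was 488.5 nt in CSE and 1568 nt with knockdown, against 285 and 218 nt for the whole lists. Over all 5 genes, 13 of 19 distinct intervals had exactly the length and spacing of an annotated exon; the match of MUC5B and that of MUC20 rest on the length of 1 exon each. Among all intervals over 1000 nt, 57.8% in CSE and 58.3% with knockdown had the length of some exon on their chromosome and strand. This used length alone, without spacing, so it is not comparable with the matches above. How many such lengths match by coincidence was not tested.

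**Figure D5:**
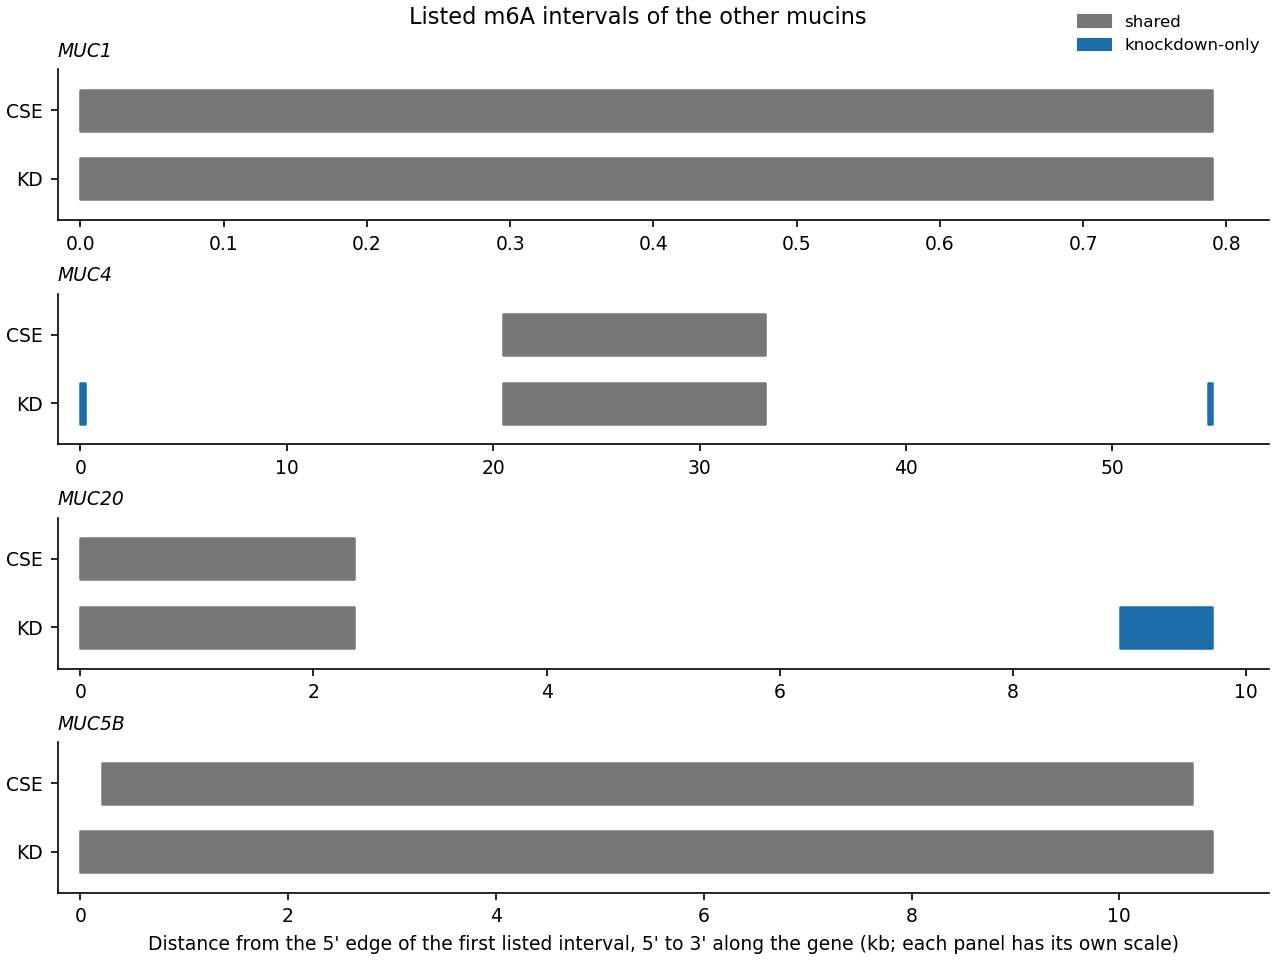
Listed m6A intervals of MUC1, MUC4, MUC20 and MUC5B in the CSE and METTL3 knockdown (KD) lists by distance in kb along each gene, 5′ to 3′, each panel on its own scale. Grey intervals overlap the other list, and the blue knockdown-only intervals lie on both sides of the long MUC4 interval and at the 3′ side of MUC20.

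The long exons differed in how often they hold GGAC and in how repetitive they are. On the sense strand GGAC occurred 120 times in exon 3 of MUC16, 5.53 per kb, 50 times in exon 1 (5.17 per kb) and 20 times in exon 5 (4.27 per kb). The density in the knockdown-only exon 3 was above that in the shared exons 1 and 5, and whether it bears on the listing was not tested. Exon 31 of MUC5B held 96 (8.81 per kb), exon 1 of MUC20 held 12 (5.12 per kb) and exon 2 of MUC4 held 33 (2.60 per kb). The median over the longest coding transcript of 18026 genes was 3.75 per kb, with quartiles of 2.54 and 5.37. These are whole transcripts with their untranslated parts, so single exons are set here beside an unlike unit. The exons also differed in their share of G and C. It was 64.6% in MUC5B, 60.4% in MUC20, 56.8% in MUC4 and 48.9% to 49.2% in MUC16, and its part in the density was not tested. The density was above the upper quartile in exon 31 of MUC5B, listed in both conditions, and in exon 3 of MUC16, listed with knockdown only. It was below the median in exon 2 of MUC4, listed in both conditions, and between the median and the upper quartile in the other 3 exons. In MUC16 almost no 50-base word recurs within a long exon, 0.0% in exons 1 and 3 and 0.4% in exon 5, against 38.1% in exon 2 of MUC4 and 48.1% in exon 31 of MUC5B. How reads from repeated stretches were placed is not stated, and its part in the intervals of MUC4 and MUC5B was not tested.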

How the data were processed

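MeRIP-seq was described by 4 libraries, an IP and an input of each condition. The submitters' processing notes name the aligner HISAT2 2.0.4 and the build hg19. Each of the 2 deposited lists gives a score made by the authors on an unstated scale; interval names start with MACS, a peak caller. The design text gives 3 replicates per condition. How peaks were called and whether replicates were pooled: not given in the sources used here. Read depths were not used here.

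Intervals overlapping a window on its strand were taken with Python 3.11.15, and positions count from 1. Sharing at least 1 bp on the same strand made an interval shared. Overlap calls were tested on simulated data. Exons and sequences came from GENCODE release 29 (GRCh38), matched by length and spacing only; intervals were assigned to no other mucin gene, since annotation of hg19 was not used here. GGAC was searched on the sense strand. Figures were drawn with matplotlib 3.10.9. All 5 genes and each condition-specific interval are named. Members, lists and measures were chosen with earlier results of these data known. Exon, sequence and repeat measures were added after the lists were seen.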

Additional observations from a re-analysis of the deposited data

How the results depend on the processing

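Of 53 values under alternatives, 35 stayed the same, 17 moved and 1 reversed. Counts were taken as the same within 1.5 times the reported one, and covered lengths and median widths only where identical, so that 9 of the 17 are lengths or widths, some of which moved little. No paired analysis was possible because each condition has 1 list. Keeping the upper 50% of each list by score left 6 CSE and 7 knockdown intervals over the 5 genes, 0 of them CSE-only and 1 knockdown-only, covering 40423 and 40532 nt with median widths of 7046.5 and 4680 nt. For MUC16 this left 2 CSE intervals (14093 nt, median 7046.5 nt) and 3 knockdown intervals (14347 nt), with 0 listed in 1 condition only. The knockdown minus CSE difference in MUC16 intervals thus reversed from -3 to 1, and both the CSE-only exons and the exon 3 interval lie in the lower 50% of their list by score. The share of condition-only intervals in the upper 50% of the whole lists was not computed. Whether low scores are particular to the condition-only intervals of the mucins is therefore not known. The ratio of covered length in MUC16 rests on the exon 3 interval, without which the knockdown list covered 14461 nt, an alternative added after seeing the data. Windows extended by 10 kb gave 67180 nt with knockdown. Counts with a reciprocal overlap of 50%, with gaps of up to 100 nt and with strand ignored stayed within 1.5 times the reported ones. The number of reads behind an interval is unknown, so weak intervals near the lowest score cannot be graded by depth.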
